A study of Mus musculus with 12 samples.

Results

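The 10 genes described here take up and burn fatty acids in muscle, and they were followed through AGO2-bound RNA of mouse tibialis anterior muscle. They were Cd36, Lpl, Fabp3, Cpt1b, Cpt2, Acadm, Acadl, Acadvl, Hadha and Hadhb, 10 of the 55450 genes of the GENCODE M21 annotation. A peak belonged to a gene when it overlapped the gene on the same strand by at least 1 nt, and every listed peak was kept whatever its value. The genes held 178 of 92451 listed peaks in the WT library of set 1 and 169 of 119859 in the mir-486 KO library of set 1. They held 273 of 244814 in the WT library of set 2 and 298 of 256219 in the mir-486 KO library of set 2.

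Muscles came from 6-month-old male mice, either wild type (labelled C57BL/6) or homozygous for loss of miR-486 (miR-486-/-, labelled FVB N/J), so named strain and genotype cannot be told apart in the labels, although the methods describe the knockout as backcrossed to C57BL/6J. The knockout lacks the microRNA in the whole animal, and no further allele or agent is named. In chimeric eCLIP, AGO2 is cross-linked to the RNA that it holds, immunoprecipitated and sequenced, and each peak is set against a size-matched input. There were 2 library sets with 1 WT and 1 mir-486 KO total immunoprecipitate in each. The methods do not tie the muscles they describe to single libraries, and no source states that the sets came from different animals. Genotypes were compared by description and no test was run, because an exact permutation of 2 against 2 libraries cannot give a two-sided p below 0.333.

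Long-chain fatty acids are freed from lipoprotein triglycerides by LPL at the capillary wall, cross the membrane with the help of CD36 and are carried in the cytosol by FABP3. CPT1B, on the outer mitochondrial membrane, joins them to carnitine, and CPT2, on the inner membrane, returns them to coenzyme A. The acyl-CoA dehydrogenases ACADVL, ACADL and ACADM take very long, long and medium chains through the first step of beta-oxidation, and the trifunctional protein, built from HADHA and HADHB, carries out the remaining steps for long chains. AGO2 carries microRNAs, which pair mainly through their seed with target RNA, most often in 3′ UTRs.

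The sequences that go with the 3′ UTR peaks are shown first. Of the searched words, complementary to the seeds of 9 microRNAs, 3 stood in a 3′ UTR inside a peak of all 4 libraries: the miR-29 word in Lpl, the miR-26 word in Acadl and the miR-27 word in Acadm. The Lpl and Acadl peaks, which had the highest −log10 p of their gene in at least 3 libraries, are shown. The Acadm peaks had log2 folds over input between −2.21 and 0.12 and are not. The mature sequences (RefSeq, GRCm38), 5′ to 3′ with the seed at positions 2 to 8 in capitals, are as follows.
miR-29a-3p: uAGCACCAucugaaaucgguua
miR-26a-5p: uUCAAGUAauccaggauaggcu
The target stretches, 5′ to 3′ on the RNA strand with the matching word in capitals, are as follows, Lpl at chr8:68906755-68906784 on the plus strand and Acadl at chr1:66831365-66831394 on the minus strand.
Lpl: tgcagtatagatttgTGGTGCTaactttgt
Acadl: atgcggattctaatcTACTTGAgataaagt
A word match is a description of letters and not a measured pairing.

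For 3 coding sites that had the highest −log10 p of their gene in all 4 libraries and were enriched (log2 fold over input and −log10 p both at least 3) in at least 1, the middle 30 nt of the stretch covered in all 4 libraries is shown in lower case, because none of the 9 words lay inside it. They are exon 2 of Cpt2 (chr4:107914290-107914319, minus strand), exon 4 of Hadhb (chr5:30166710-30166739, plus strand) and exon 6 of Acadvl (chr11:70014345-70014374, minus strand), numbered in the transcript with the longest coding sequence.
Cpt2: accatgaagagatacctcagtgcacagaag
Hadhb: agaatattgtggtggtggaaggggtccgca
Acadvl: gaatgaccctgccaagaacgacgccttgga

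A few facts of the libraries bear on every value below. The Mir486 gene had 2 peaks in the WT library of set 1 and 4 in that of set 2, and 0 in both KO libraries. Absolute read depth is unknown. Fast-fibre genes (8 of 8 with a peak, 415 to 779 peaks per library) and endothelial genes (8 of 8, 91 to 393 peaks) were listed throughout, and adipocyte genes were sparse (5 or 6 of 7, 15 to 33 peaks). Of 5 heart genes, Nppa and Tnni3 had 0 peaks in every library, Tnnt2 had 0 in set 1 and 2 in each library of set 2, Actc1 had 5 to 13 and Myh6 had 4 to 16, 1 of them enriched in WT set 1. Of 8 genes of slow or oxidative fibres, Myh7 (the slow myosin heavy chain), Tnni1, Tnnc1, Tnnt1 and Myl2 had 4 to 53 peaks per library in set 1 and 0 to 4 in set 2. Myh2 (the myosin of fast oxidative fibres), Mb and Myl3 had 5 to 66 in set 1 and 7 to 84 in set 2. In bulk muscle, fewer cells of a type and less RNA per cell cannot be told apart.

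AGO2 peaks over the 10 genes had low folds against input except in the WT library of set 1. The authors' log2 fold of immunoprecipitate over input had a median over the genes' peaks of 1.46 in WT set 1, 0.12 in KO set 1, 0.38 in WT set 2 and 0.37 in KO set 2. Over all listed peaks of the same libraries the medians were 0.68, 0.38, 0.47 and 0.45, and over all coding-sequence peaks 0.68, 0.12, 0.21 and 0.18. The genes therefore stood above the library median in WT set 1 and below it in the other 3 libraries, while they matched or exceeded the coding-sequence median in all 4.

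A peak is called enriched here when its log2 fold over input was at least 3 and its −log10 p at least 3. The p-value, also the authors', compares the reads of a peak in a pair of libraries and not the conditions. In WT set 1, 15 of 178 peaks (8.43%) were enriched, beside 3.57% of all peaks. In KO set 1 it was 0 of 169 peaks, beside 0.848%. In WT set 2 it was 8 of 273 (2.93%), beside 1.42%, and in KO set 2 it was 2 of 298 (0.671%), beside 1.23%. The share was above that of all peaks in both WT libraries and below it in both KO libraries. Among all coding-sequence peaks the shares were 3.17%, 0.263%, 1.04% and 0.950% in the same order.

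The mean over the sets was 11.5 ± 4.95 enriched peaks (SD, n = 2) in WT and 1 ± 1.41 (SD, n = 2) in mir-486 KO. The WT libraries, at 15 and 8, did not overlap the KO libraries, at 0 and 2. The shares among all listed peaks did not overlap either, at 3.57% and 1.42% in WT and 0.848% and 1.23% in mir-486 KO. At a log2 threshold of 1 the order of the counts turned in set 2, with 44 of 273 peaks past in WT and 53 of 298 in KO. In set 1 there were 29 of 178 and 2 of 169. The share of all listed peaks at this threshold was not computed, so these counts have no background beside them. Enriched peaks fell in 7 of the 10 genes in WT set 1, in 0 in KO set 1, in 2 in WT set 2 and in 1 in KO set 2. The share of all genes with an enriched peak was not computed, so these gene counts have no background. Acadm, Acadl and Fabp3 had 0 enriched peaks in every library.

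**Figure D1:**
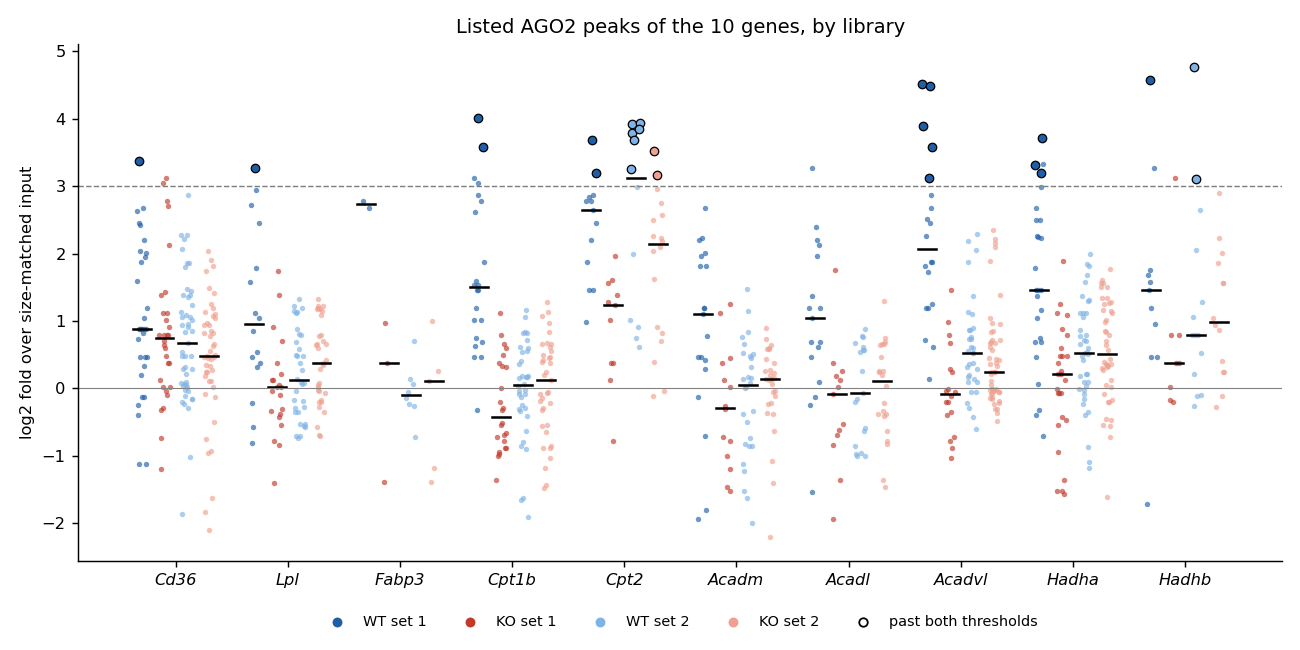
Each point is 1 listed peak, at its log2 fold over size-matched input (y axis), by gene (x axis) and library (colour, see legend). Bars are medians, the dashed line is the log2 threshold of 3 and outlined points passed both thresholds. Outlined points are mostly of the WT library of set 1, and Cpt2 is the gene with outlined points in both WT libraries and in the KO library of set 2.

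The genes' peaks lay mainly in coding sequence. At the peak midpoint, 139 of 178 peaks of WT set 1 lay in CDS (78.1%), 129 of 169 of KO set 1 (76.3%), 205 of 273 of WT set 2 (75.1%) and 238 of 298 of KO set 2 (79.9%). Over all listed peaks the CDS share was 51.8%, 35.5%, 40.2% and 39.7%. In 3′ UTRs lay 9.55%, 12.4%, 9.89% and 9.73% of the genes' peaks, against 19.2%, 18.2%, 12.1% and 11.4% of all peaks. Introns held 6.18%, 5.92%, 9.16% and 5.37% of the genes' peaks, against 21.4%, 39.5%, 41.7% and 43.1% of all peaks, and most of these intronic peaks were of Cd36 and Hadhb.

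The mean CDS share was 76.6% ± 2.12 (SD, n = 2) in WT and 78.1% ± 2.50 (SD, n = 2) in mir-486 KO, so the genotypes differed by less than the SD over the sets. The mean 3′ UTR share was 9.72% ± 0.240 in WT and 11.1% ± 1.91 in mir-486 KO (SD, n = 2 each). Most peaks overlapped an exon, on average 208 of 225.5 per WT library and 220.5 of 233.5 per KO library. Both peak ends lay within 5 nt of the same exon's ends in 21 of 178, 22 of 169, 32 of 273 and 35 of 298. The median peak length was 65 nt (2 to 324). Of the enriched peaks, the Lpl peak was the only one with its midpoint in a 3′ UTR. The coding sequence made up between 34.6% (Lpl) and 90.8% (Acadvl) of the spliced transcripts.

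**Figure D2:**
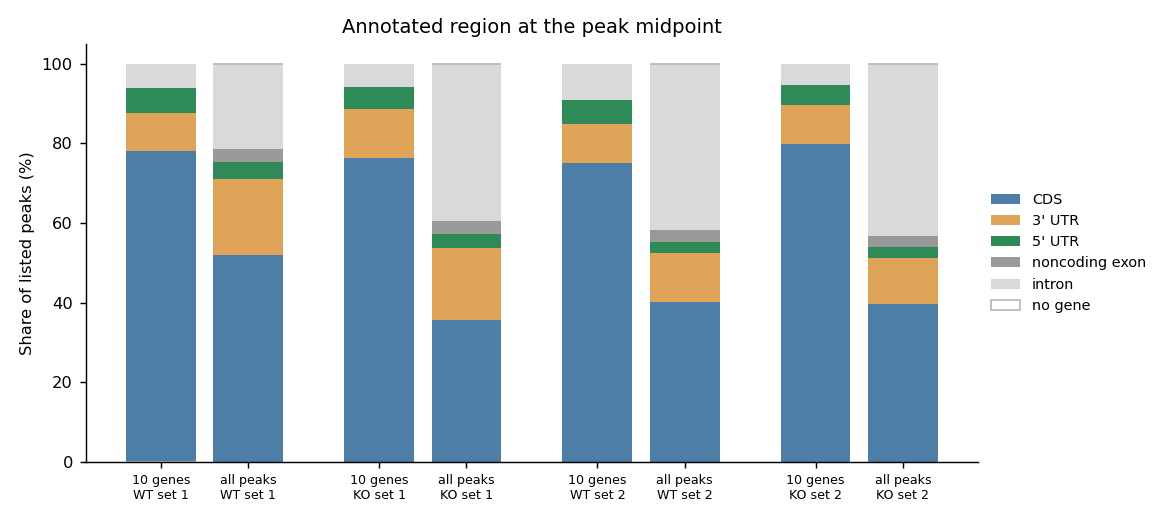
Stacked bars give the share of listed peaks (y axis, percent) whose midpoint lay in each annotated region, for the 10 genes and for all peaks, in each library. CDS takes between 75.1% and 79.9% of the genes' peaks and between 35.5% and 51.8% of all peaks.

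When peaks of the 4 libraries that touch were joined, the genes had 192 sites, of which 110 were seen in all 4 libraries, 24 in 3, 9 in 2 and 49 in 1. Acadm had 12 sites, and 12 were shared by all 4 libraries. Hadha shared 19 of 21, Cpt1b 17 of 21 and Acadl 11 of 13. Cd36, which spans 107112 nt, shared 16 of 46, and 21 of its sites were seen in 1 library. Hadhb shared 5 of 24. An enriched peak stood in 15 of the 192 sites, and in more than 1 library at 3 of them, all in Cpt2 or Hadhb.

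Cpt2, the inner-membrane carnitine palmitoyltransferase (ENSMUSG00000028607.16, chr4:107903981-107923610, minus strand), had the highest folds as a gene in both sets. Its median log2 fold over input was 2.65 in WT set 1, 1.23 in KO set 1, 3.12 in WT set 2 and 2.14 in KO set 2. In WT set 1 Fabp3 stood higher, at 2.73, but over 2 peaks. Both WT libraries were above the KO library of the same set. Cpt2 held 2 of the 15 enriched peaks of WT set 1, 6 of the 8 of WT set 2 and both of KO set 2. Adjoining peaks of a site count separately here, and the enriched peaks of Cpt2 lay in 3 sites.

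In WT set 1 and both libraries of set 2 the highest Cpt2 peaks stood at the 5′ end of the transcript, from exon 1 to exon 3 of 5. In KO set 1 the gene's highest log2 fold, 1.97, lay outside these exons. At exon 2 (chr4:107914258-107914346) the highest log2 fold was 3.20 in WT set 1, 1.56 in KO set 1, 3.93 in WT set 2 and 3.51 in KO set 2, with −log10 p of 6.43, 1.56, 28.4 and 26.4. This was the Cpt2 peak with the highest −log10 p in all 4 libraries. At exon 1, across the start of the coding sequence (chr4:107923314-107923556), the highest log2 folds were 3.68, 1.28, 3.94 and 3.17. At exon 3 (chr4:107912639-107912750) they were 2.78, 1.61, 3.84 and 2.58. A site at the start of exon 4 (chr4:107907747-107908226) had 2.87, 1.02, 2.00 and 2.09. At exons 1, 2 and 3 the WT library was above the KO library in both sets.

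In the direct comparison of the immunoprecipitates, which takes no account of input, the exon 2 site had a WT-over-KO log2 fold of 0.94 in set 1 and −0.09 in set 2. The reverse folds were −1.003 and 0.07. The 2 sets therefore differed in direction at the exon 2 site, and in set 2 the difference was close to 0.

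CPT1B (gene Cpt1b, ENSMUSG00000078937.8, chr15:89416405-89425863, minus strand) is the muscle form of the rate-limiting enzyme of the carnitine shuttle. Its median log2 fold over input was 1.50, −0.42, 0.05 and 0.13 in WT set 1, KO set 1, WT set 2 and KO set 2. Its 2 enriched peaks were both of WT set 1. At exon 15 (chr15:89418976-89419114) the highest log2 folds were 4.004, 0.32, 0.19 and 0.97, and at exon 13 (chr15:89419892-89420009) they were 3.57, −0.69, −0.12 and −0.32. At both exons the WT library of set 1 stood apart from the other 3, which lay at most at 0.97. The annotation holds a second gene on the same strand, Gm44502, that overlaps Cpt1b, so that reads there cannot be assigned to one of them.

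Hadhb, the beta subunit of the trifunctional protein (ENSMUSG00000059447.13, chr5:30155248-30184593, plus strand), held the highest single fold of the 10 genes in both WT libraries. At exon 4 (chr5:30166658-30166771) the highest log2 fold was 4.57 in WT set 1, 3.12 in KO set 1, 4.76 in WT set 2 and 2.89 in KO set 2, with −log10 p of 14.1, 2.10, 7.49 and 6.13. The site was enriched in both WT libraries. In the KO libraries it missed a threshold, on the p-value in set 1 and on the fold in set 2. In the direct lists WT over KO was 2.47 in set 1 (−log10 p 14.8) and −0.59 in set 2. At exon 2, next to the start of the coding sequence (chr5:30163662-30163746), the folds over input were 1.57, 0.02, 3.10 and 2.24.

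Hadha, the alpha subunit (ENSMUSG00000025745.12, chr5:30118304-30155162, minus strand), lies next to Hadhb and runs the other way. Its median log2 fold over input was 1.46, 0.21, 0.53 and 0.51 in the 4 libraries in the same order. At exon 4 (chr5:30145233-30145369) the highest folds were 3.71, 1.12, 2.00 and 1.57, with −log10 p of 13.5, 1.38, 14.9 and 13.4. Exon 11 had 3.20, 1.89, 1.32 and 1.51. At exon 19 (chr5:30120044-30120166) they were 3.31, 0.89, −0.35 and 1.56, so that WT was above KO in set 1 and below it in set 2.

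Acadvl, the very-long-chain dehydrogenase (ENSMUSG00000018574.14, chr11:70010183-70015411, minus strand), had 5 of the 15 enriched peaks of WT set 1 and 0 in the other 3 libraries. The 5 peaks lay in 3 sites. Its median fold was 2.07, −0.08, 0.53 and 0.24. At exon 6 (chr11:70014245-70014380) the highest folds were 4.49, 1.46, 2.18 and 2.16, and at exon 5 (chr11:70014477-70014545) they were 4.52, 0.99, 2.29 and 2.35. The −log10 p at exon 6 was 8.14, 0.98, 17.8 and 22.4, so the site carried a low p in 3 libraries and passed the fold threshold in 1.

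**Figure D3:**
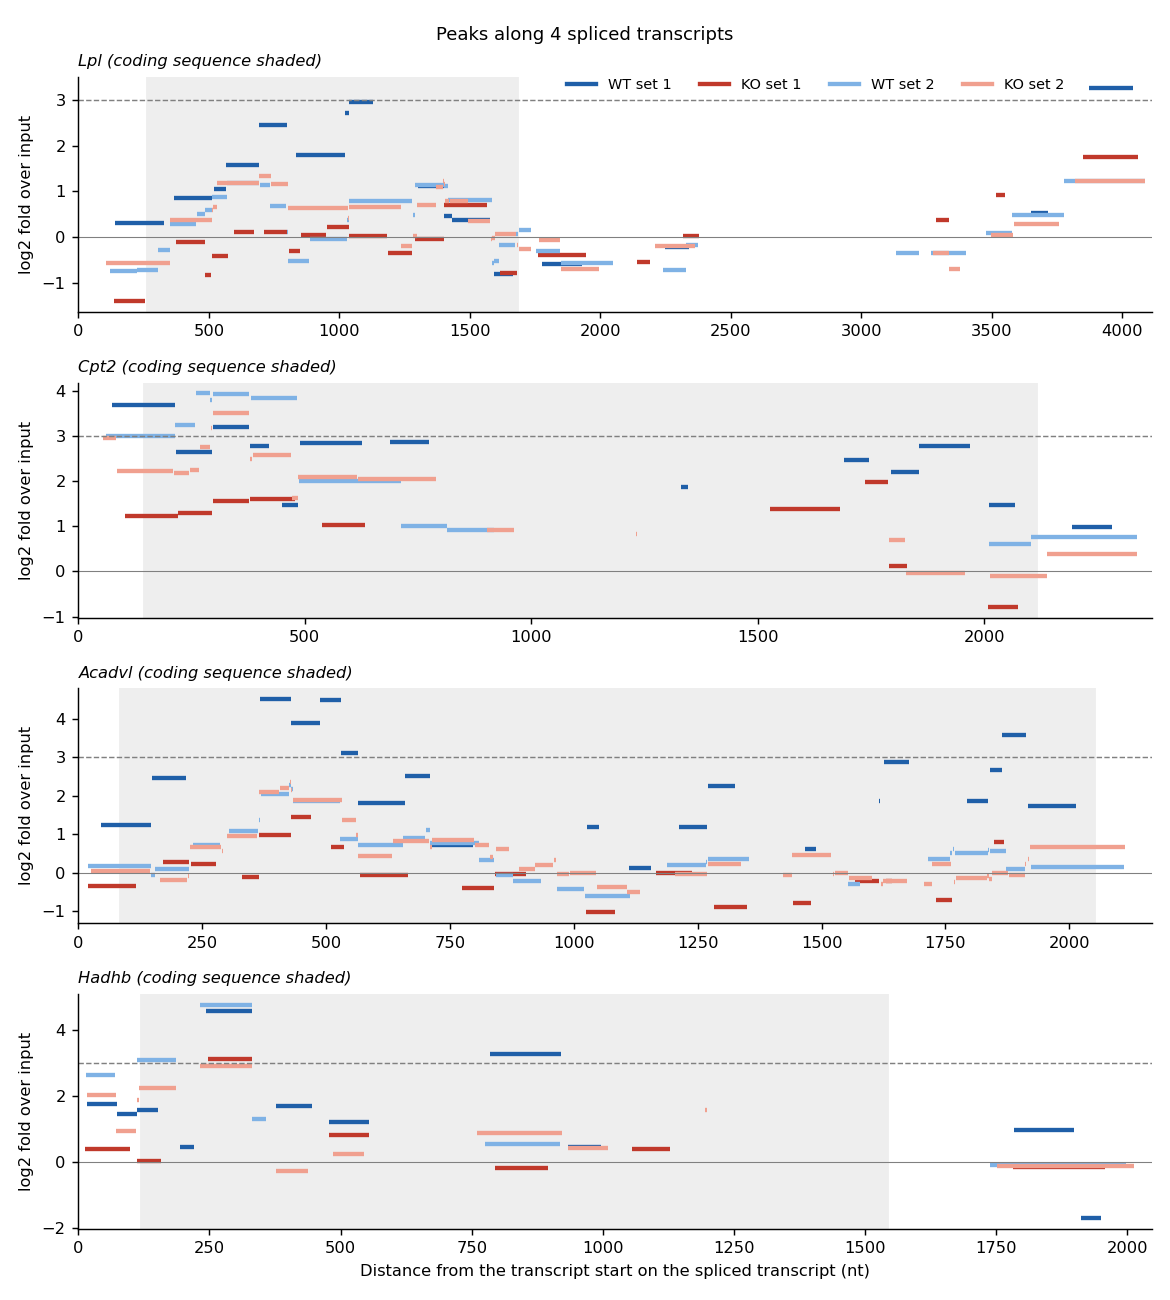
Horizontal bars are peaks placed on the spliced transcript with the longest coding sequence (x axis, nt from its start), at their log2 fold over input (y axis), coloured by library, for Lpl, Cpt2, Acadvl and Hadhb. The dashed line is the log2 threshold of 3. The highest bars lie toward the 5′ end of the coding sequence in Cpt2, Acadvl and Hadhb, and at the end of the 3′ UTR in Lpl.

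Acadm and Acadl, the medium-chain and long-chain dehydrogenases, had low folds. The median log2 fold of Acadm (ENSMUSG00000062908.12, chr3:153922357-153944632, minus strand) was 1.10, −0.29, 0.05 and 0.14, and that of Acadl (ENSMUSG00000026003.5, chr1:66830839-66863277, minus strand) was 1.04, −0.09, −0.07 and 0.12. In each, the WT library of set 1 was the highest and the other 3 lay close to 0. The highest Acadm fold over exon 4 (chr3:153938895-153938972) was 2.23, 0.38, 1.47 and 0.90. A processed pseudogene, Gm15793, lies within Acadl on the same strand.

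The Acadl 3′ UTR peak that holds the miR-26 word had a log2 fold of 0.61 in WT set 1, 1.75 in KO set 1, 0.88 in WT set 2 and 1.30 in KO set 2, taking the peak that covers the word. The −log10 p were 0.47, 1.81, 5.41 and 7.68. The KO library was above the WT library in both sets, and all 4 values were under the threshold. The miR-26 word was present in 2.36%, 1.61%, 2.14% and 2.18% of all 3′ UTR peaks extended by 25 nt on each side.

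Lpl, lipoprotein lipase (ENSMUSG00000015568.16, chr8:68880491-68907448, plus strand), had its leading peak near the end of the 3′ UTR, at chr8:68906298-68906904 in the last of 10 exons. The log2 fold of the peak with the miR-29 word was 3.26 in WT set 1, 1.74 in KO set 1, 1.22 in WT set 2 and 1.22 in KO set 2. Its −log10 p was 28.0, 10.9, 31.4 and 38.4, the highest among the 10 genes in each library. In set 2 the WT and KO folds were equal at 2 decimals. The median over all Lpl peaks was 0.95, 0.02, 0.12 and 0.38.

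The miR-29 word was present in 4.40%, 2.81%, 3.39% and 3.63% of all 3′ UTR peaks extended by 25 nt. Among the genes' own 3′ UTR peaks it stood in 2 of 17, 1 of 21, 2 of 27 and 2 of 29. The Lpl 3′ UTR also held the miR-27 word inside a peak of 3 libraries and the miR-23 word inside a peak of 2, with log2 folds of at most 0.91 and 0.47. The miR-27 word stood in 1 of 17, 2 of 21, 4 of 27 and 3 of 29 of the genes' extended 3′ UTR peaks. Among all such peaks it was 2.67%, 2.10%, 2.87% and 2.73%. In WT set 2 adjoining Hadha peaks shared the same word. The miR-206, let-7, miR-30 and miR-33 words stood in 0 of the genes' 3′ UTR peaks in every library.

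CD36 (gene Cd36, ENSMUSG00000002944.15, chr5:17781690-17888801, minus strand) is the membrane fatty acid translocase and is also made by endothelial cells, adipocytes and macrophages. Its median log2 fold was 0.87, 0.75, 0.67 and 0.49. At exon 3, where 5′ UTR and coding annotation meet (chr5:17828777-17828987), the highest folds were 3.37, 0.70, 1.39 and 1.48. At exon 14 (chr5:17785721-17785893) they were 1.60, 2.78, 2.07 and 1.73. The exons differed in direction in set 1, with WT above KO at exon 3 and KO above WT at exon 14. Macrophage genes had 37, 22, 135 and 94 listed peaks in the 4 libraries and endothelial genes 91, 132, 369 and 393, and their part in the Cd36 values was not tested.

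Fabp3 (ENSMUSG00000028773.8, chr4:130308595-130315463, plus strand), the muscle and heart fatty acid binding protein, had 2, 3, 8 and 5 peaks in WT set 1, KO set 1, WT set 2 and KO set 2. Its median log2 fold over input was 2.73, 0.38, −0.10 and 0.11. The values over input and between immunoprecipitates ran opposite ways in set 1: the WT library was higher over its input, and the KO library was higher in the direct lists. At exon 1 (chr4:130308734-130308851) the direct WT-over-KO fold was −1.24 in set 1 and −1.22 in set 2, and KO over WT was 1.10 and 1.17. At the 3′ UTR site (chr4:130315282-130315455) WT over KO was −0.74 and −0.96, and KO over WT 0.60 and 0.90. These were the Fabp3 sites with a peak in all 4 libraries, and at both the KO library was higher in all 4 direct lists.

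The direct lists compared the immunoprecipitates of a set with each other. One list of each set gives WT over KO and is written at peaks called in WT, and the other gives the reverse fold and is written at peaks called in KO. In set 1 the genes were higher in WT, and in set 2 they were slightly higher in mir-486 KO. The median direct log2 fold over the genes' peaks was 0.78 for WT over KO in set 1, and the reverse fold had −0.69. In set 2 it was −0.29 for WT over KO, and 0.32 in the reverse list. The corresponding medians of all peaks were 0.74, 0.72, 0.30 and 0.27, above 0 in each list, which is written at the peaks of the library in the numerator. Those of all coding-sequence peaks were 0.82, −0.16, 0.05 and 0.04.

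The mean of the set medians was 0.24 ± 0.76 (SD, n = 2) for WT over KO and −0.19 ± 0.71 (SD, n = 2) for the reverse lists, so the sets spread more widely than the genotypes differed. After the median of all peaks of each list was subtracted, the first mean turned to −0.28 and the second moved to −0.68, with 0.05 left for KO over WT in set 2. In set 1, 146 of 178 peaks (82.0%) of the WT-over-KO list had WT above KO, close to the 80.4% of all peaks of that list. In the reverse list 49 of 169 (29.0%) had KO above WT, beside 67.5% of all peaks. In set 2, 55 of 273 (20.1%) had WT above KO and 244 of 299 (81.6%) had KO above WT, beside 67.1% and 62.6% of all peaks.

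By gene, the WT-over-KO median was above 0 in 9 of 10 genes in set 1, with Fabp3 the exception at −0.99. The values of the other 9 ran from 0.61 (Lpl) to 1.07 (Acadvl). In set 2 it was below 0 in 9 of 10, with Hadhb the exception at 0.45, and the others ran from −0.54 (Lpl) to −0.10 (Cd36). The KO-over-WT median of set 1 was below 0 in 7 genes and above 0 in Cd36 (0.13), Hadhb (0.05) and Fabp3 (1.06). In set 2 it was above 0 in all 10 genes, from 0.11 (Cd36) to 0.73 (Hadhb). The WT-over-KO and KO-over-WT lists of a set share both libraries and are not independent.

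**Figure D4:**
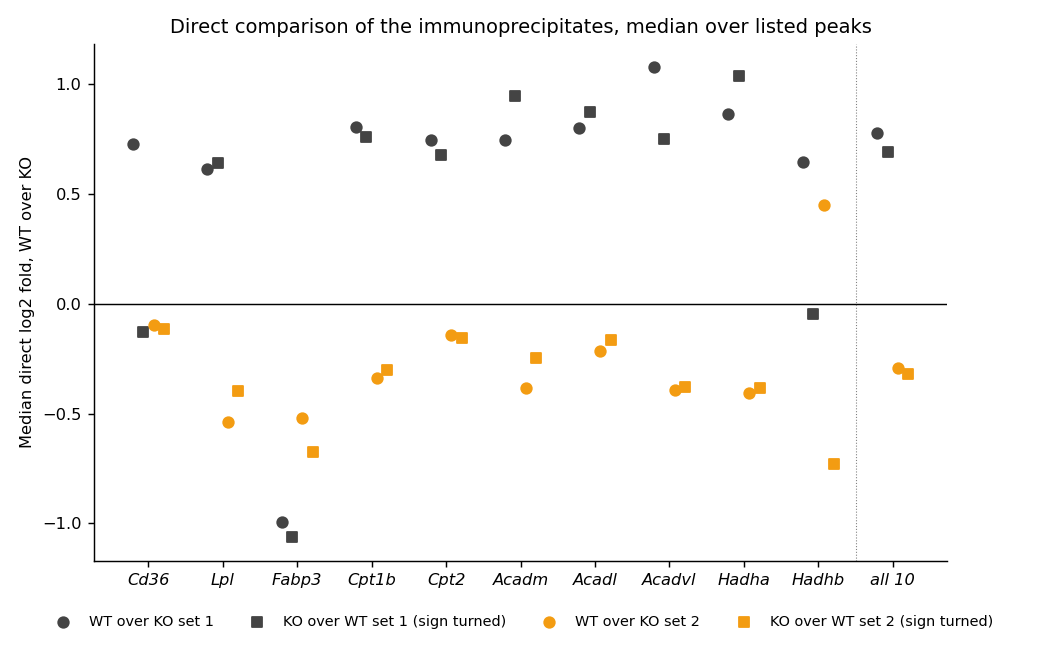
Points are the median direct log2 fold of WT over KO (y axis) over the peaks of each gene (x axis) in the 4 direct lists, with the sign of the KO-over-WT lists turned. Set 1 lies above 0 and set 2 below 0 for Lpl, Cpt1b, Cpt2, Acadm, Acadl, Acadvl and Hadha, and Fabp3 lies below 0 in both sets.

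At the 110 sites with a peak in all 4 libraries, 87 were higher in WT in both lists of set 1, 17 were higher in KO in both and 6 differed between the lists. In set 2, 12 were higher in WT, 92 were higher in KO and 6 differed. At 75 of the 110 sites the WT library was higher in set 1 and the KO library in set 2. At 9 sites WT was higher in both sets, and at 13 sites KO was. Cpt1b (16 of 17 sites higher in WT in set 1, 15 of 17 higher in KO in set 2), Acadvl (10 of 11 and 11 of 11) and Hadha (16 of 19 and 17 of 19) showed this turn at most of their shared sites, and Cd36 had 8 of 16 and 11 of 16.

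**Figure D5:**
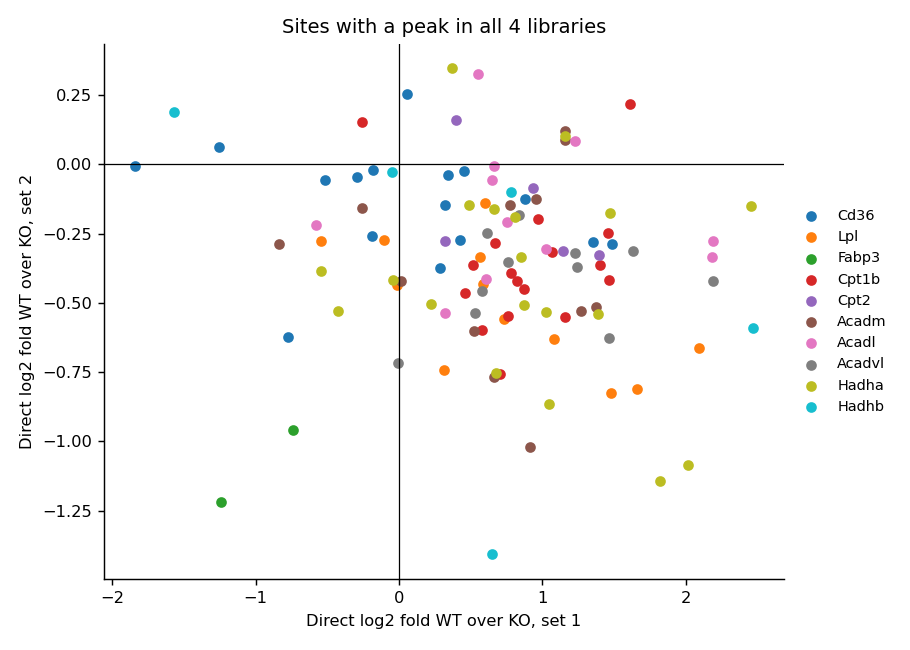
Each point is 1 of the 110 sites with a peak in all 4 libraries, at the median direct log2 fold of WT over KO in set 1 (x axis) and in set 2 (y axis), coloured by gene. Most points lie right of 0 and below 0, and the Fabp3 points lie left of 0 and below 0.

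Past both thresholds, 1 of the genes' 178 peaks was higher in WT in set 1, beside 0.469% of all peaks. It lay in the coding sequence of Hadha (chr5:30122150-30122221), with a direct log2 fold of 3.25 and a −log10 p of 3.61. The same stretch had folds over input of 1.38 in WT set 1, −0.16 in WT set 2 and −0.56 in KO set 2, no listed peak in KO set 1, and a WT-over-KO fold of −0.41 in set 2. In the other direct lists 0 of 169 (KO over WT, set 1), 0 of 273 (WT over KO, set 2) and 0 of 299 (KO over WT, set 2) passed, beside 0.179%, 0.0192% and 0.0144% of all peaks.

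Muscle fibre genes and other genes of beta-oxidation also differed between the sets. Fast-fibre genes had a median WT-over-KO fold of 0.89 in set 1 and −0.06 in set 2, and KO over WT was −0.72 and 0.04. Genes of slow or oxidative fibres had 0.77 and −0.29 for WT over KO and −0.59 and 0.31 for KO over WT, but in set 2 Myh2 held 79 of the 107 peaks behind the WT-over-KO value. Endothelial genes had WT over KO of 0.74 and 0.12 and KO over WT of 0.84 and 0.29. Adipocyte genes had 0.16 and 0.19, and 0.58 and 0.02. Neither list had a direction, since both folds were above 0 in both sets. Macrophage genes had WT over KO of 1.74 and 1.12, above 0 in both sets, and KO over WT of 0.34 and −0.76. The part of these cell types and of the RNA level in the 10 genes' values was not tested.

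Of 64 other genes of fatty acid handling, 20 had an enriched peak in WT set 1, 1 in KO set 1, 14 in WT set 2 and 10 in KO set 2. Enriched were 38 of their 746 peaks (5.09%) in WT set 1, 4 of 881 (0.454%) in KO set 1, 33 of 1427 (2.31%) in WT set 2 and 19 of 1577 (1.20%) in KO set 2, beside 3.57%, 0.848%, 1.42% and 1.23% of all peaks. The 22 genes listed for beta-oxidation had a median direct WT-over-KO fold of 0.90 in set 1 and −0.24 in set 2, and KO over WT of −0.74 and 0.36. For the 15 regulators the WT-over-KO medians were 1.16 and −0.02, and the KO-over-WT medians 0.84 and 0.35. The 12 uptake and activation genes had 1.06 and −0.05 for WT over KO, and 0.12 and 0.20 for KO over WT. The 9 lipid droplet genes had 0.99 and −0.17, and 0.43 and 0.52. The 6 other genes of the carnitine shuttle had 0.90 and 0.07, and −0.07 and 0.16.

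Ppargc1b was the gene of this list with enriched peaks in all 4 libraries. It encodes a coactivator of mitochondrial gene expression and holds the microRNA gene Mir378a on the same strand. The highest log2 folds there were 8.64, 8.28, 8.40 and 8.53, and of its 7, 4, 6 and 4 enriched peaks, 5, 4, 5 and 4 overlapped Mir378a.

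Direct peaks past both thresholds were seen in 5 genes of the list. In set 1 they were 13 of 746 peaks (1.74%) for WT over KO and 0 of 881 for KO over WT, beside 0.469% and 0.179% of all peaks. In set 2 they were 2 of 1427 (0.140%) for WT over KO and 1 of 1577 (0.0634%) for KO over WT, beside 0.0192% and 0.0144%. Foxo1, which encodes a transcription factor active in fasting, had 9 with WT over KO in set 1, and its median fold was 2.31 in set 1 and −0.23 in set 2. Acacb, the acetyl-CoA carboxylase whose product inhibits CPT1, and Ucp3, a mitochondrial carrier, had 2 each in the same list, with medians of 1.02 and 2.01 in set 1 and −0.39 and −0.09 in set 2. Ppargc1a, the related coactivator, had 2 with WT over KO in set 2, where its median was 0.93, and 0.65 in set 1. Mgll, monoacylglycerol lipase, had 1 with KO over WT in set 2.

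The searched words were also looked up in the genes' CDS peaks, a choice made after most peaks were seen to lie there. Inside a peak of at least 1 library there were 12 word positions in peaks with their midpoint in coding sequence. There were 7 in peaks with their midpoint in a 3′ UTR. The region is that of the peak midpoint and not of the word. The Cd36 word named below lies in the 5′ UTR of the transcript with the longest coding sequence, which starts at nt 321. Of the 15 enriched peaks of WT set 1, 3 held a word inside: Lpl the miR-29 word, Cd36 the miR-27 word at exon 3 and Cpt1b the miR-206 word at exon 13. None of the 8 enriched peaks of WT set 2 and none of the 2 of KO set 2 held one inside the peak. In WT set 1 the miR-27 word stood in 3 of 139 of the genes' CDS peaks (2.16%) and 1.81% of all CDS peaks, and the miR-206 word in 3 of 139 (2.16%) and 1.95%.
The Cd36 stretch lies at chr5:17828947-17828976 and the Cpt1b stretch at chr15:89419891-89419920, both on the minus strand, with the matching word in capitals.
Cd36: ggccacgtagaaaacACTGTGAttgtacct
Cpt1b: agcggctgccgtgggACATTCCcgagcagg
The Cd36 peak that covers the word had a log2 fold of 3.37 in WT set 1 and 1.48 in KO set 2. Peaks whose midpoint was not in coding sequence also covered it, with 0.70 in KO set 1 and 1.39 in WT set 2. The Cpt1b peak had 3.57 in WT set 1, −0.12 in WT set 2 and −0.32 in KO set 2.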

How the data were processed

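Total AGO2 immunoprecipitates of WT and mir-486 KO tibialis anterior were used, 1 per genotype in each of 2 sets; libraries enriched for miR-486 were not analysed here. Per the labels and methods, the authors processed reads with UMI-tools, cutadapt, FastQC, STAR and SAMtools on GRCm38 and called and normalised peaks per library without pooling. The authors deposited for each peak a log2 fold and a −log10 p-value, which is 0 wherever the fold is below 0. Values are the authors' own; no read counts are given, so depth is unknown. Direct folds are scaled to library size, not to RNA level.

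From the 8 lists, peaks were assigned to GENCODE M21 genes (the labels name a later release). Regions were read at the midpoint (CDS, then 3′ UTR, 5′ UTR, noncoding exon, intron). The 7-nt seed words were searched in 3′ UTR peaks and, later, CDS peaks, both extended by 25 nt on each side. Words came from the RefSeq entries given, without those of chr18, where Mir378a lies. Among these, miR-486a-5p, miR-1a-3p, miR-133a-3p and miR-378a-3p had none. The miR-206 word is shared with miR-1a-3p, so it was searched. The deposited end coordinate lay 1 nt past an exon end in 18 of 178, 16 of 169, 35 of 273 and 30 of 298 of the genes' peaks. Python 3.11.15, pandas 2.3.3, NumPy 2.4.6, pysam 0.24.0 and matplotlib 3.10.9 were used. The overlap and threshold functions were tested on simulated data, and planted counts were recovered in 10 of 10 genes. A plain letter search answered 200 of 200 sequences as planted, some with a word and some without. It did not run the peak search itself. The genes, lists and words were chosen with earlier results of these data known. Named pathway genes had an enriched peak in all 4 libraries or a direct peak past both thresholds; named sites were enriched, were past both thresholds in a direct list or had the gene's highest −log10 p in a library, except exon 4 of Cpt2 and the Fabp3, Acadm and CDS word sites, chosen after their values were seen. Alternatives were other thresholds, overlaps, region rules, merged peaks, exons and each set alone.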

Additional observations from a re-analysis of the deposited data

How the results depend on the processing

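No paired analysis was possible because no result came from a test; the direct lists compare WT with KO within a set, as values. All values below are means over the 2 sets. When adjoining peaks were merged, the number of listed peaks fell from 225.5 to 156.5 in the WT libraries. In the KO libraries it fell from 233.5 to 155.5.

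With the log2 threshold at 1, enriched peaks numbered 36.5 in WT and 27.5 in KO in place of 11.5 and 1, and set 2 alone held 44 in WT and 53 in KO. With the log2 threshold at 4 they numbered 2.5 and 0, and with −log10 p at 2 the KO count was 2. With adjoining enriched peaks merged they numbered 9 in WT (13 in set 1 and 5 in set 2) and 1 in KO. Leaving out each set gave 8 to 15 in WT and 0 to 2 in KO. Genes with an enriched peak numbered 8 in WT and 5 in KO at a log2 threshold of 1, 2 and 0 at 4, and 1.5 in KO at a −log10 p of 2, against 4.5 and 0.5. Leaving out each set gave 2 to 7 genes in WT and 0 to 1 in KO. Shares of all peaks or of all genes were not computed at the other thresholds, so these counts have no background.

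Direct calls for WT over KO numbered 10.5 at a log2 threshold of 1, 0 at 4, 0 at a −log10 p of 5, 1 at a −log10 p of 2, and 0 among peaks overlapping an enriched peak, against 0.5. All 21 calls at a log2 threshold of 1 were of set 1, among 178 peaks. The median over all peaks of that list was 0.74. Shares of all peaks past the other thresholds were not computed, so these counts have no background. For KO over WT there were 4 at a log2 threshold of 1 and 0 otherwise. Leaving out each set gave 0 to 1 for WT over KO.

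The median direct fold of WT over KO turned from 0.24 to −0.28 after the median of all peaks of the list was subtracted, and that of KO over WT moved from −0.19 to −0.68 (set 1 −1.41, set 2 0.05). Leaving out each set gave −0.29 to 0.78 for WT over KO and −0.69 to 0.32 for KO over WT, so the sign of each mean rested on set 1. For KO over WT, the median over peaks that overlap an enriched peak was not run because KO set 1 had 0 enriched peaks.

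The CDS share was 53.4% in WT and 56.7% in KO when read at the 5′ end of the peak, 63.5% and 64.9% with 3′ UTR before CDS, and 68.9% and 70.2% by covered nucleotides. Of the peaks in CDS at the midpoint and in an intron at the 5′ end, 30 of 38, 29 of 34, 43 of 44 and 36 of 38 ended within 5 nt of an exon. The 3′ UTR share was 9.17% in WT at the 5′ end, 22.8% in WT and 24.3% in KO with 3′ UTR first, and 15.6% and 16.5% by covered nucleotides. Of 93 values under alternatives, 54 stayed close, counts within 1.5 times and shares and medians within 1 SD over the sets. Read depth is unknown, so a low count of enriched peaks cannot be set against the number of reads.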
